A study of Equus caballus with 17 samples.

Results

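Small RNA from the testes of adult horses was compared with small RNA from testes labelled Puber, the pubertal stage, in 7 of the 17 samples of a study of horse (Equus caballus) spermatogenesis. The 7 samples were chosen by their stage label: Adult 13, 20, 33 and 4 (n = 4) and Puber 10, 11 and 19 (n = 3). All were testis tissue, with DNase-treated RNA isolated by TRIzol, and the labels used here name no treatment, breed or age in years. The study also holds Infant (n = 3) and Pre-puber (n = 3) testes and sperm (n = 4), of which the Infant and Pre-puber samples entered the main fit and sperm was not used. Infant 31a and 31b share a title number, as do Pre-puber 3a and 3b, so each pair may come from 1 animal. With each pair summed, the main test by edgeR still called 0 miRNAs, with 36 at an unadjusted p under 0.05. Each miRNA was taken as annotated when its name carried the horse prefix, which is left out below, and 274 annotated mature miRNAs and 1461 predicted hairpins stood in the table of 1763 entries. The labels do not say that the samples of a stage come from separate animals, so p-values here reflect the spread among the samples at hand, which may be technical.

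Puberty is the time when the seminiferous tubules of the testis begin to complete meiosis and form spermatids, and an adult testis holds every stage of germ cell from spermatogonium to spermatozoon beside Sertoli, Leydig, peritubular, vascular and blood cells. A miRNA is a short RNA that pairs through its seed with messenger RNAs and lowers their translation and stability. In mouse testis, the miR-449 and miR-34 family is known from germ cells in and after meiosis, while many miRNAs of somatic and early germ cells make up a smaller share of the RNA as the later germ cells fill the tubules.

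Sequences are shown for predicted hairpins, the short fold-back RNAs that the deposited table lists with a sequence and an EquCab3.0 position but no miRNA name. The first 6 had the largest positive change in Adult among hairpins that reached a mean of 50 CPM in either group and whose groups did not overlap, and the capitals mark the longest stretch that a hairpin shares with another one shown, where that stretch reached 9 bases.
11_303879 (chr11:51103602-51103676, plus strand): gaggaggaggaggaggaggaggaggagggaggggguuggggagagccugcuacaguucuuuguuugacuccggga
13_688010 (chr13:4758790-4758843, minus strand): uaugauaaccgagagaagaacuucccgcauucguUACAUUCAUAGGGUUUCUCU
7_4521473 (chr7:47079038-47079079, plus strand): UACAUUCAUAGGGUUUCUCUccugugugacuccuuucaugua
10_163723 (chr10:28191789-28191835, minus strand): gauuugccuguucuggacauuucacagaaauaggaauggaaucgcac
22_2440211 (chr22:44754719-44754795, plus strand): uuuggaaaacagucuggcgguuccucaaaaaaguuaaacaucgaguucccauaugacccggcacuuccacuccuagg
X_5285926 (chrX:119911163-119911218, minus strand): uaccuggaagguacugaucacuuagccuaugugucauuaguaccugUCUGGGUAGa
X_5285890 (chrX:119901739-119901793, minus strand): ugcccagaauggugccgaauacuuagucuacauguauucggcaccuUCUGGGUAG
X_5285890 was added after its values were seen because it lies 9.37 kb from X_5285926 on the same strand. The stretch of 20 bases shared by 13_688010 and 7_4521473 was present in 3 tested hairpins, so the same reads may have been counted for them. Among them was 7_4521474, an entry with the sequence of 7_4521473 and the same summed counts (1218 in Adult and 223 in Puber).

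Depth was lower on average in Adult, with overlapping ranges. Total counts were 4.68, 2.86, 6.66 and 5.7 M (mega) in Adult 13, 20, 33 and 4, against 7.86, 6 and 5.33 M in Puber 10, 11 and 19. Annotated miRNAs held 3.6 ± 1.07 M counts in Adult and 4.84 ± 1.08 M in Puber (SD, n = 4 and 3). Levels below are CPM of the annotated counts, by the annotated total of each sample and TMM scaling, a scaling that sets the bulk of miRNAs to no change. Means are given ± SD (n = 4 Adult and 3 Puber samples) and log2 changes ± SE throughout. Mature miRNAs have nearly equal lengths, so levels were not divided by length. By Spearman correlation over annotated miRNAs, given as a description, Puber 19 stood as near to the Adult samples (mean 0.977) as to the other Puber samples (0.976), while Puber 10 had 0.948 and 0.978 and Puber 11 had 0.967 and 0.983.

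In the Adult samples, miRNAs of the germ cell family of miR-449 and miR-34 and of the horse miR-8908 cluster stood higher than in Puber, and the X-linked miR-450 and miR-542 group, the miR-182, miR-183 and miR-96 cluster, miR-99a and miR-199b-5p stood lower. None of these differences passed the main test. edgeR's quasi-likelihood test on the 13 testis samples called 0 of 184 tested miRNAs at an adjusted p under 0.05 (0%), with 34 at an unadjusted p under 0.05 and a smallest adjusted p of 0.0546. DESeq2 on the same samples called 10, of which 2 were higher (miR-872 and miR-1248) and 8 lower in Adult. The 8 were miR-542-5p, miR-199b-5p, miR-99a, miR-450b-5p, miR-1298, miR-205, miR-337-5p and miR-874. edgeR called 7, all lower, without Adult 20 and likewise 7 without Puber 19. Changes were as often positive as negative, at 92 and 92, with a median log2 change of -0.0027, and 45 were over 2-fold in size. TMM scaling sets the bulk of miRNAs to no change, so the even split is partly set by the scaling. The mean was higher in Adult for 66.3% of miRNAs with no scaling and for 33.2% with factors from all entries.

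The same test on the 7 Adult and Puber samples alone, where the spread was smaller (common biological coefficient of variation 0.391, against 0.501 over 13 samples), called 19 of 176 miRNAs. Of these, 5 were higher in Adult (2.84% of those tested) and 14 lower (7.95%). This count rested on single samples. It was 1 without Adult 13 (miR-542-5p), 30 without Adult 20, 16 without Adult 33 and 4 without Adult 4. It was 0 without Puber 10 or without Puber 11 and 25 without Puber 19. Without scaling beyond the annotated total it was 5 (2 higher and 3 lower). Leaving Pre-puber 14, which lies apart from its group, out of the 13-sample fit gave 14 calls (3 higher and 11 lower), 12 of them among the 19.

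As a description beside the tests, all 4 Adult samples lay above all 3 Puber samples for 16 miRNAs (8.7%) and below them for 28 (15.2%). These counts depend on the scaling: they were 21 and 21 with no scaling, 16 and 24 by upper quartiles, 17 and 29 by median ratios and 8 and 30 with factors from all entries. The median of all changes moved with the scaling, to 0.31 with no scaling and -0.33 with hairpins in the same fit, and it was 0.23 without Puber 11. Under all 5 scalings, 5 miRNAs stayed higher and 14 stayed lower without overlap. Among the 44 miRNAs of the main scaling, Puber 19 was the Puber sample nearest to the Adult samples for 22, Puber 11 for 13 and Puber 10 for 9. Puber 10 was the farthest for 26, Puber 11 for 10 and Puber 19 for 8. The 44 were chosen for no overlap, and these counts were not made over all tested miRNAs.

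**Figure D1:**
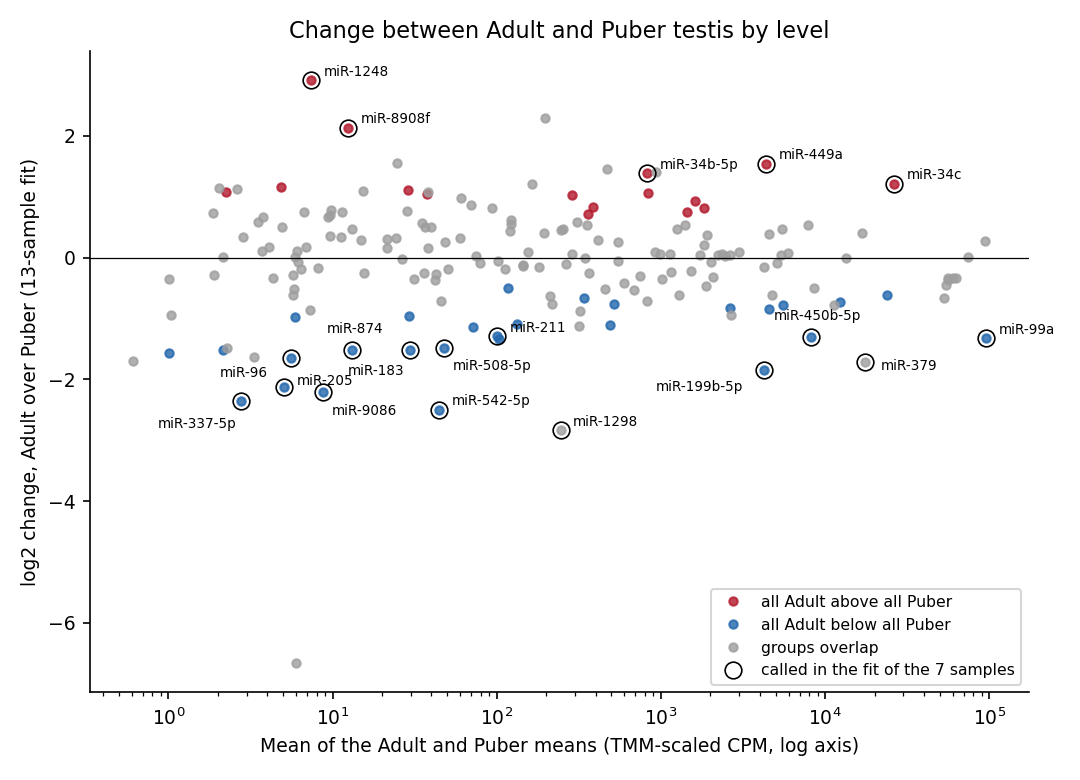
The log2 change of Adult over Puber in the 13-sample fit (vertical axis) against the mean of the Adult and Puber means (horizontal log axis, CPM) for 184 annotated miRNAs. Coloured points are the 16 and 28 miRNAs whose Adult samples all lay above or all below the Puber samples, and rings mark the 19 called in the fit of the 7 samples, 5 above the zero line and 14 below it.

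The miR-449 and miR-34 family shares a seed and is abundant in mouse germ cells from meiosis on. miR-34c, its most abundant member here, had 40856, 39942, 34476 and 32500 CPM in Adult 13, 20, 33 and 4, against 10414, 20294 and 17030 CPM in Puber 10, 11 and 19. Every Adult sample was above every Puber sample, by a log2 change of 1.22 ± 1.03 (SE, adjusted p = 0.496) in the 13-sample fit and 1.26 ± 0.29 (adjusted p = 0.0232) in the fit of 7. miR-449a had 8192, 4394, 6946 and 6589 CPM in Adult, against 1280, 1896 and 3538 CPM in Puber. It also showed no overlap, with a log2 change of 1.54 ± 1.17 over 13 samples (adjusted p = 0.475) and 1.62 ± 0.40 over 7 (adjusted p = 0.0232), but the groups overlapped with no scaling.

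miR-34b-5p, made from the same transcript as miR-34c, had 1330, 1347, 1011 and 1093 CPM in Adult, against 252, 611 and 513 CPM in Puber. It was the third of 5 members to lie higher without overlap, where 8.7% of all tested miRNAs did, at a log2 change of 1.38 ± 0.94 (adjusted p = 0.443 over 13 samples and 0.0324 over 7). miR-34a, a p53 target in mammals that many somatic cells express, differed less, at 66 ± 12.1 CPM in Adult and 53 ± 7.35 CPM in Puber (log2 change 0.32). miR-449b, named after its values were seen, stood at 36.8 ± 17.6 CPM in Adult and 12.6 ± 11.3 CPM in Puber, and its groups overlapped through Puber 19 at 25.6 CPM. All 5 members had a positive change under each of the 5 scalings, with a median of 1.38, beside -0.0027 for all miRNAs tested. Their summed level ranged from 40287 to 50488 CPM in Adult and from 12011 to 22862 CPM in Puber. In a tissue, more cells of a type and more RNA per cell cannot be told apart, here and in all results below.

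On the X chromosome, miR-424, miR-503, miR-450a, miR-450b, miR-450c and miR-542 are made from neighbouring genes in mammals, and most X-linked genes are silenced during meiosis in the male. miR-542-5p had 14.7, 12, 13.3 and 13.7 CPM in Adult, against 101, 92.3 and 33.8 CPM in Puber. The Adult samples lay close together and all below Puber, with Puber 19 nearest to them. Its log2 change was -2.50 ± 0.58 (adjusted p = 0.0546 over 13 samples and 0.00912 over 7), and in the fit of 7 it kept its call in 5 of 7 fits that left out a sample, more than any other miRNA named, and lost it without Puber 10 or Puber 11.

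miR-450b-5p, the most abundant of the group, had 4471, 5242, 3765 and 5474 CPM in Adult, against 13321, 13889 and 7904 CPM in Puber. Its log2 change was -1.30 ± 0.30 (adjusted p = 0.0546 over 13 samples and 0.0232 over 7), without overlap under all 5 scalings. miR-450c had 4142, 2479, 3043 and 3476 CPM in Adult, against 5481, 5822 and 6345 CPM in Puber. miR-450a and miR-503 followed the same order without overlap, with log2 changes of -0.83 ± 0.25 and -1.11 ± 0.58. miR-450c, miR-450a and miR-503 were not called by edgeR over 13 or 7 samples and overlapped with no scaling.

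miR-424 was the exception, at 747, 363, 2062 and 902 CPM in Adult, against 1481, 1715 and 1479 CPM in Puber, so that Adult 33 lay above all Puber samples. All 6 members had a negative change (median -0.98, beside -0.0027 for all tested), and 5 of the 6 lay lower without overlap, where 15.2% of all tested miRNAs did. The summed level was 9530 to 12318 CPM in Adult and 20124 to 25611 CPM in Puber. With no scaling, 6 of 6 stayed lower and 2 did not overlap.

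The X-linked miR-506 family region, a fast-evolving group of miRNAs expressed in mammalian testis, had negative changes in the main scaling. miR-509a-5p had 17435, 25568, 13416 and 18896 CPM in Adult, against 26802, 27157 and 32737 CPM in Puber, a log2 change of -0.62 ± 0.50 (adjusted p = 0.496). miR-508-5p had 16.9, 29.3, 36 and 19 CPM in Adult, against 78.8, 71.2 and 61.4 CPM in Puber, a log2 change of -1.48 ± 0.65 (adjusted p = 0.235 over 13 samples and 0.0327 over 7). These 2 of 5 tested members lay lower without overlap, where 15.2% of all tested miRNAs did, although miR-509a-5p overlapped with no scaling. miR-514a and miR-509b overlapped, with log2 changes of -0.26 and -0.71, and all 5 tested members were negative (median -0.62), of which 3 stayed negative with no scaling. The X-linked pair miR-105 and miR-767-5p went the other way, at 51.4 ± 25.8 and 80.6 ± 35.9 CPM in Adult and 24.3 ± 9.65 and 40.8 ± 21 CPM in Puber (log2 changes 1.08 and 0.98), with overlapping groups. The fitted changes of these X-linked miRNAs thus differed in sign. Those of miR-105 and miR-767-5p were about as large as their SE (0.92 and 0.98), and a shared direction of X-linked miRNAs was not tested. Of the X-linked miRNAs named so far, edgeR called none over 13 samples, where DESeq2 called miR-542-5p and miR-450b-5p (adjusted p = 0.00771 and 0.0198).

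**Figure D2:**
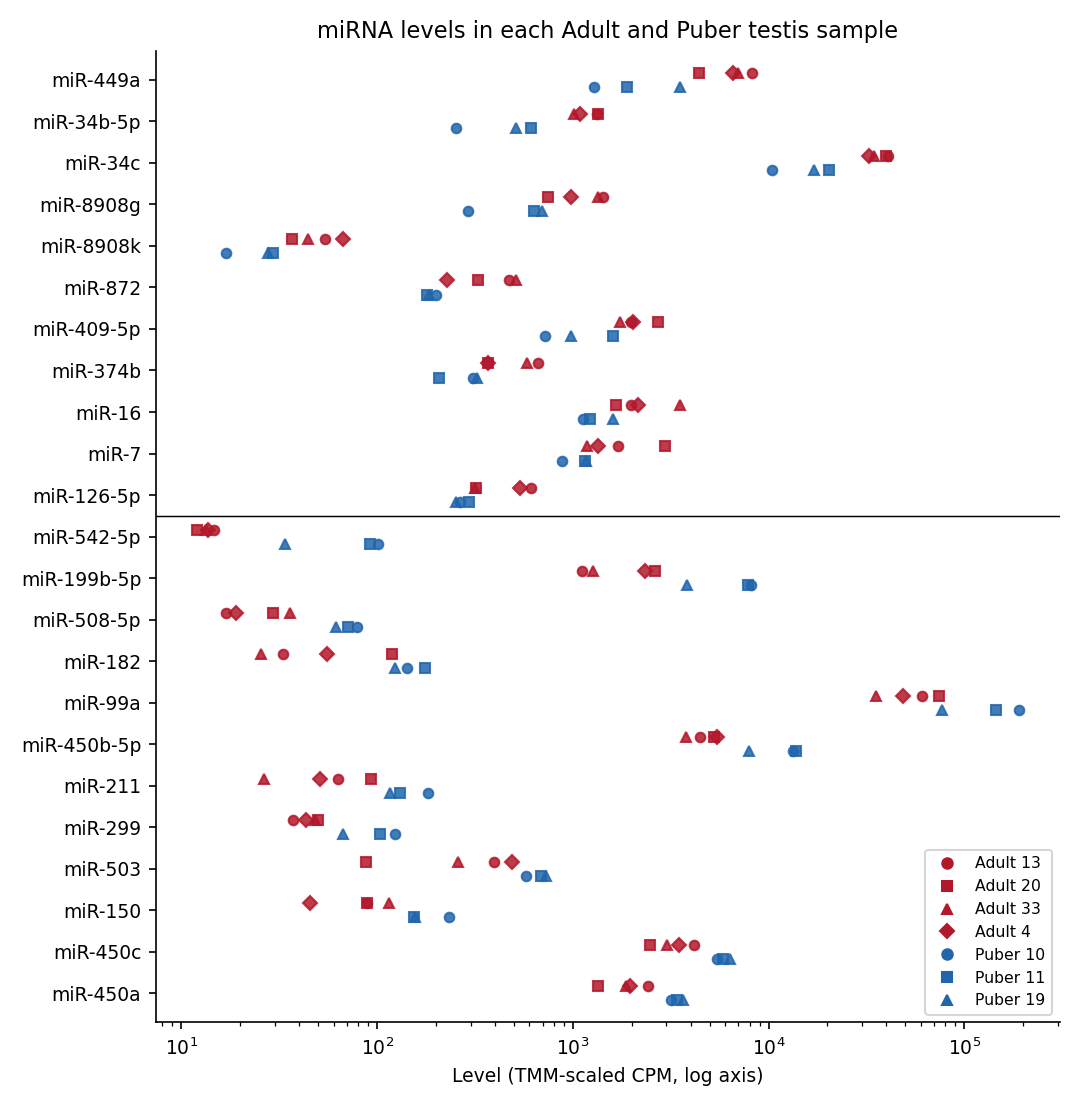
The level in every Adult (red) and Puber (blue) sample, on a log axis in CPM, of the 11 miRNAs with the largest positive (top) and the 12 with the largest negative (bottom) changes among miRNAs whose mean reached 50 CPM in Adult or Puber and whose groups did not overlap. Marker shapes name the samples: miR-34c runs from 32500 to 40856 CPM in Adult and from 10414 to 20294 CPM in Puber, and Puber 19 (blue triangle) lies nearest to the Adult samples for miR-542-5p, miR-199b-5p, miR-99a and miR-450b-5p.

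The cluster of miR-182, miR-183 and miR-96 is transcribed as a unit and known from sensory cells. miR-182 had 33, 119, 25.6 and 55.6 CPM in Adult, against 142, 176 and 124 CPM in Puber, and Adult 20 lay just below the lowest Puber sample. miR-183 had 13.8, 24.5, 7.48 and 16.1 CPM in Adult, against 40.4, 50.5 and 41.1 CPM in Puber. miR-96 had 2.06, 2.4, 3.6 and 2.56 CPM in Adult, against 8.67, 9.28 and 7.46 CPM in Puber. All 3 lay lower without overlap, where 15.2% of all tested miRNAs did, with log2 changes of -1.34 ± 0.61, -1.52 ± 0.54 and -1.65 ± 0.54. The direction was the same under all 5 scalings, but miR-182 overlapped under upper quartile scaling. miR-183 and miR-96 were called in the fit of 7 (adjusted p = 0.0274 and 0.0327) and neither over 13 samples (0.121 and 0.101).

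miR-99a, which lies beside let-7c in mammalian genomes, was the most abundant miRNA in Puber and lower in Adult. It had 60905, 73995, 35533 and 48826 CPM in Adult, against 189610, 144690 and 77330 CPM in Puber. Adult 20 and Puber 19 were close, and no sample crossed except under upper quartile scaling. The log2 change was -1.32 ± 0.33 (adjusted p = 0.0595 over 13 samples and 0.0232 over 7). Over 13 samples, DESeq2 called miR-99a, as did edgeR with no scaling. Its relatives miR-100, miR-125b-5p and miR-99b overlapped, at log2 changes of -0.34, -0.01 and -0.51. The 5 members of the miR-99, miR-100 and miR-125 families were all negative in the main scaling (median -0.34), but with no scaling 3 of them were positive (median 0.00), and the median was 0.01 without Puber 11.

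miR-199b-5p and miR-199a-5p, which are made in stromal and mesenchymal cells, were lower in Adult. miR-199b-5p had 1120, 2638, 1263 and 2344 CPM in Adult, against 8100, 7863 and 3851 CPM in Puber, a log2 change of -1.84 ± 0.44 (adjusted p = 0.0546 over 13 samples and 0.0216 over 7). DESeq2 called it over 13 samples. miR-199a-5p had 10594, 7162, 9588 and 10118 CPM in Adult, against 14968, 17618 and 13762 CPM in Puber (log2 change -0.72 ± 0.23, adjusted p = 0.101 and 0.144). Neither overlapped, except miR-199a-5p with no scaling. miR-145 of smooth muscle averaged 5442 ± 1743 CPM in Adult and 5280 ± 1275 CPM in Puber (log2 change 0.04). The 3 tested members of the stromal list thus differed in sign in the main scaling. Adult 33, at 7965 CPM, was the sole Adult sample of miR-145 above its Puber mean. With factors from all entries, the means of all 3 members were lower in Adult.

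Of other miRNAs named for a negative change, miR-211, hosted in an intron of TRPM1 in mammals, had 63.2, 93.1, 26.4 and 50.9 CPM in Adult, against 181, 131 and 116 CPM in Puber. Its log2 change was -1.29 ± 0.46 (adjusted p = 0.121 over 13 samples and 0.0496 over 7). miR-150, a lymphocyte miRNA, had 89.2, 88.3, 116 and 45.6 CPM in Adult, against 234, 153 and 156 CPM in Puber (log2 change -1.10 ± 0.37). Both lay lower without overlap, miR-150 with the exception of no scaling. The 5 tested blood cell miRNAs, miR-150 among them, were split, with 2 positive and 3 negative changes. Of these 5, only miR-150 had groups that did not overlap.

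At lower levels, miR-205, an epithelial miRNA, averaged 1.87 ± 0.363 CPM in Adult and 8.24 ± 4.06 CPM in Puber. miR-874 averaged 6.86 ± 2.81 CPM in Adult and 19.3 ± 4.51 CPM in Puber, and miR-9086 3.27 ± 2.47 CPM in Adult and 14.3 ± 4.33 CPM in Puber. These 3 were called lower in the fit of 7 (adjusted p = 0.0232, 0.0327 and 0.0232) and lay lower without overlap under all 5 scalings. miR-1298 was also called there (log2 change -2.89, adjusted p = 0.0327), but Adult 20 at 172 CPM exceeded Puber 19 at 77.1 CPM. Its call did not hold without Adult 13, Adult 33, Adult 4, Puber 10 or Puber 11.

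The imprinted DLK1-DIO3 region encodes a large group of miRNAs that are expressed from the maternal chromosome in mammals. Its 17 tested members were split, with 8 positive and 9 negative changes (median -0.05, 0.20 without Adult 33 and 0.41 without Puber 11), 2 higher and 3 lower without overlap. These shares of the 17 are close to those over all tested miRNAs, 8.7% higher and 15.2% lower. miR-379, the most abundant, had 5185, 16978, 3953 and 6430 CPM in Adult, against 36404, 33236 and 10326 CPM in Puber, and the groups overlapped through Adult 20 and Puber 19. It was called lower in the fit of 7 (log2 change -1.74, adjusted p = 0.0327) and not over 13 samples (adjusted p = 0.101).

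Within the same region, miR-411 had 4018, 4237, 4044 and 4122 CPM in Adult, against 7383, 7489 and 6170 CPM in Puber, and miR-299 had 37.1, 49.9, 48.2 and 43.1 CPM in Adult, against 123, 104 and 67.3 CPM in Puber. Both lay lower without overlap under all 5 scalings, with log2 changes of -0.77 ± 0.24 and -1.14 ± 0.32, and edgeR called neither over 13 or 7 samples but both without Pre-puber 14 in the 13-sample fit, and miR-299 also without Puber 19. miR-409-5p went the other way, at 1970, 2708, 1739 and 2041 CPM in Adult, against 722, 1608 and 983 CPM in Puber (log2 change 0.94 ± 0.47). miR-337-5p, at 0.842 ± 0.47 CPM in Adult and 4.68 ± 3.54 CPM in Puber, was called lower in the fit of 7 (adjusted p = 0.039). miR-432 overlapped, at 539 ± 96.3 CPM in Adult and 557 ± 178 CPM in Puber. Members of this region thus differed in direction in the main scaling. Positive changes were seen for 11 of the 17 with no scaling and for 4 with factors from all entries.

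The miR-8908 family is known by name from the horse, and its 4 tested members form a cluster with at most 50 kb between neighbours in RefSeq's annotation of assembly TB-T2T. miR-8908g had 1427, 744, 1352 and 973 CPM in Adult, against 291, 633 and 694 CPM in Puber, and miR-8908k had 54.3, 36.9, 44.3 and 67 CPM in Adult, against 16.9, 29.3 and 27.5 CPM in Puber. miR-8908f had 19.4, 21.1, 27.8 and 13.2 CPM in Adult, against 2.5, 5.83 and 5.55 CPM in Puber. These 3 of 4 lay higher without overlap, where 8.7% of all tested miRNAs did, with log2 changes of 1.06 ± 0.74, 1.04 ± 0.76 and 2.14 ± 1.05. miR-8908f was called in the fit of 7 (adjusted p = 0.0232), while miR-8908k overlapped with no scaling and miR-8908g in 3 of 4 other scalings. miR-8908j, the most abundant, overlapped, at 6386 ± 3141 CPM in Adult and 4602 ± 2998 CPM in Puber (log2 change 0.47).

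The wider list of 20 tested horse-numbered miRNAs, to which the miR-8908 family belongs, had 9 positive and 11 negative changes (median -0.05, and 0.40 without Puber 11). miR-8909 had 645, 1003, 445 and 659 CPM in Adult, against 49.7, 67.3 and 636 CPM in Puber. Puber 19 stood among the Adult samples while Puber 10 and 11 were far below them. The largest fitted change of all, -6.66 for miR-9156, a miRNA noted after its values were seen, came from Puber 10 at 35.6 CPM, with Puber 11 at 0.216 and Puber 19 at 0 CPM, and from Adult samples at 0, 0, 0 and 0.342 CPM.

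Other miRNAs were also named for a positive change. miR-872 had 470, 326, 514 and 228 CPM in Adult, against 201, 180 and 183 CPM in Puber (log2 change 1.03 ± 0.34, adjusted p = 0.101). miR-374b, hosted in the X-linked non-coding gene Ftx in mouse and human, averaged 495 ± 151 CPM in Adult and 279 ± 63.2 CPM in Puber. miR-16, which targets cell cycle regulators, averaged 2334 ± 823 CPM in Adult and 1321 ± 256 CPM in Puber.

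The neural and endocrine miR-7 averaged 1797 ± 799 CPM in Adult and 1069 ± 161 CPM in Puber. These 4 lay higher without overlap in the main scaling, and each of them overlapped under 2 or 3 of the 4 other scalings. edgeR called none of the 4 over 13 or 7 samples, but DESeq2 called miR-872 over 13 (adjusted p = 0.0198), and miR-872 and miR-16 were called in the fit of 7 when Adult 20 was left out. miR-1248 was called in the fit of 7 (log2 change 3.07 ± 0.84, adjusted p = 0.0327), with 5.78, 6.24, 36.4 and 3.76 CPM in Adult, against 1.54, 1.94 and 1.72 CPM in Puber. Adult 33 stood far above the other Adult samples, and all 4 lay above Puber under all 5 scalings.

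**Figure D3:**
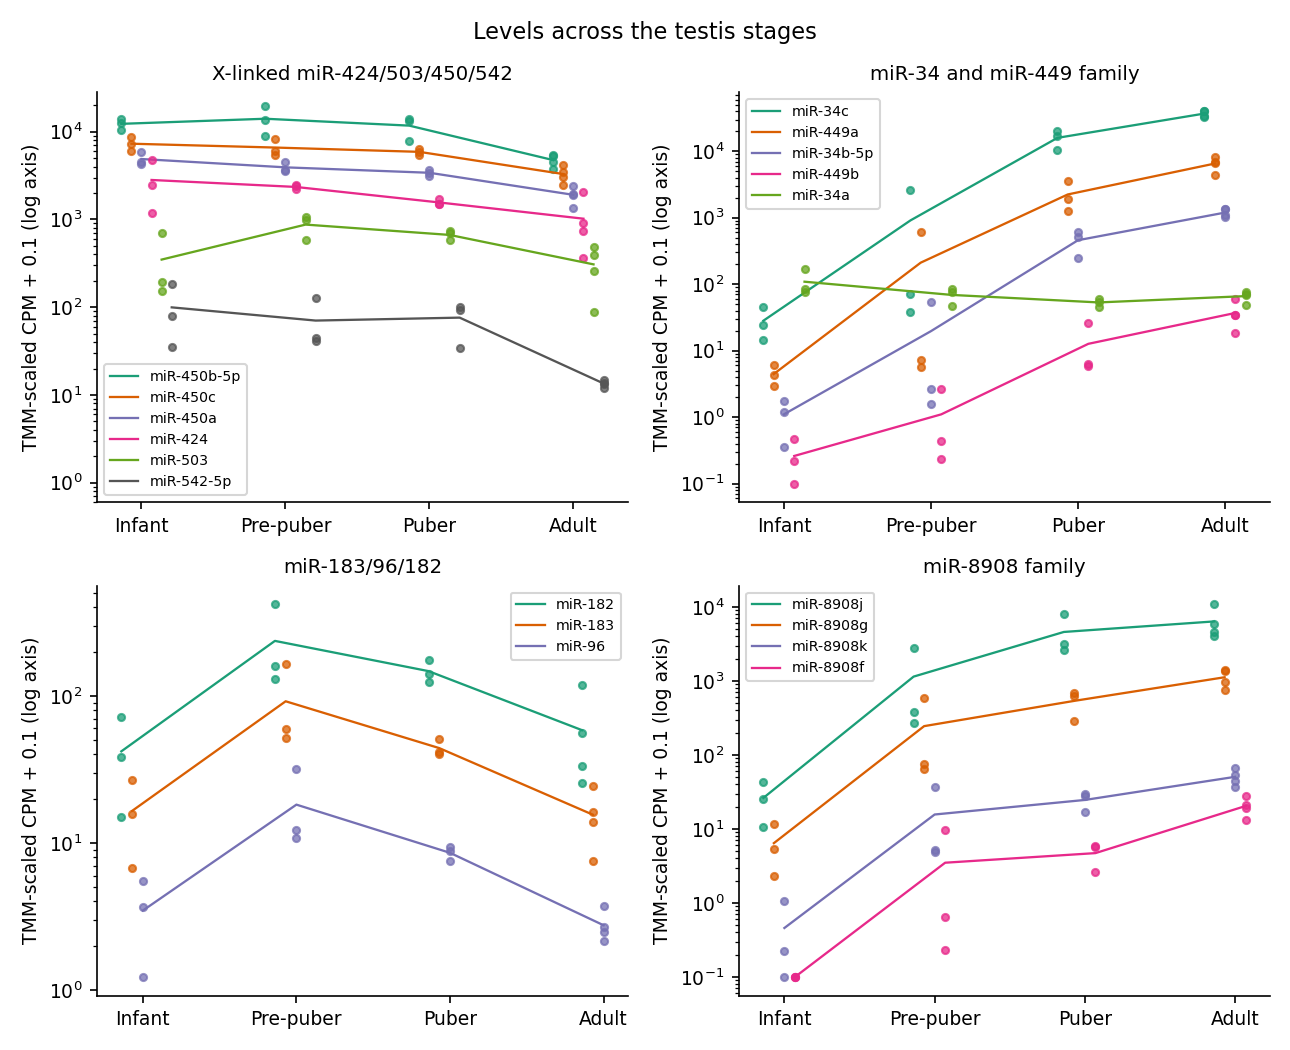
Levels (CPM plus 0.1, log axis) of 4 miRNA groups in every testis sample from Infant to Adult, with lines through the stage means. The germ cell miR-34b, miR-34c and miR-449 members have their highest means in Adult, the miR-182, miR-183 and miR-96 cluster in Pre-puber (for miR-182 only with Pre-puber 3b, the highest sample), and miR-542-5p lies at 12 to 14.7 CPM in Adult, below all samples of the earlier stages.

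Set beside the earlier stages, the difference between Adult and Puber had several shapes. The means of miR-34c over Infant, Pre-puber, Puber and Adult testis were 28.1, 910, 15913 and 36944 CPM. miR-8908g averaged 6.34, 245, 539 and 1124 CPM in the same order of stages. Both had their highest mean in Adult, also with any sample left out.

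The Pre-puber means of these miRNAs rested on Pre-puber 14. It had 2621 CPM of miR-34c, with 37.7 and 70.5 CPM in Pre-puber 3a and 3b, and 596 CPM of miR-8908g, with 65.5 and 74.7 CPM in the other two. Without Pre-puber 14 the Pre-puber means were 54.1 CPM for miR-34c and 70.1 CPM for miR-8908g. The mean of miR-8908g in Infant was 3.75 CPM without Infant 31a.

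miR-182 averaged 41.8, 236, 147 and 58.3 CPM over the stages and miR-183 16.4, 91.7, 44 and 15.5 CPM. Pre-puber 3b was the highest Pre-puber sample for both, at 420 CPM of miR-182 and 164 CPM of miR-183. Without it the Pre-puber means were 144 and 55.5 CPM, so that the highest mean of miR-182 was then in Puber. The Adult mean of miR-182 was 38.1 CPM without Adult 20, and its Infant mean was 26.7 CPM without Infant 31a.

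miR-542-5p averaged 99.4, 70.2, 75.9 and 13.4 CPM, and miR-450b-5p 12266, 14022, 11704 and 4738 CPM. Both had their lowest mean in Adult with any sample left out, while the order of the earlier stages depended on single samples. For miR-542-5p, the Infant mean was 57.2 CPM without Infant 31a and the Pre-puber mean 42.6 CPM without Pre-puber 3b.

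miR-508-5p averaged 1.36, 41.9, 70.4 and 25.3 CPM and had its highest mean in Puber, although Pre-puber 14, at 88.6 CPM, was above every Puber sample. Without Pre-puber 14 the Pre-puber mean was 18.5 CPM, below the Adult mean, and without Infant 31a the Infant mean was 0.781 CPM. miR-99a averaged 380480, 182350, 137210 and 54815 CPM, lower at each later stage. These orders of means are descriptions, and the steps before Puber were not tested here.

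The most abundant miRNAs were nearly the same in both groups. miR-21 led in Adult at 103050 ± 31780 CPM and stood at 85530 ± 9257 CPM in Puber, where miR-99a led. Of the 10 most abundant miRNAs, 9 were shared: miR-21, miR-10b, miR-100, miR-99a, let-7g, let-7a, miR-26a, let-7c and let-7f. The other place was held by miR-34c in Adult and by miR-509a-5p in Puber. Among the shared 9, only miR-99a had groups that did not overlap. The let-7 family, which marks differentiated cells, had 1 positive and 6 negative changes of 7 (median -0.46), and none of its groups was without overlap. let-7g averaged 52960 ± 15670 CPM in Adult and 67186 ± 12481 CPM in Puber, and let-7f 40946 ± 20298 CPM in Adult and 64931 ± 34857 CPM in Puber. The sole member of the miR-26 family tested, miR-26a, averaged 48975 ± 10639 CPM in Adult and 63191 ± 17755 CPM in Puber.

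The growth-linked miR-17-92 cluster and its paralogs had 8 of 8 positive changes, all small (median 0.29) and none without overlap, and 4 of the 8 were positive with factors from all entries. The shared sign also rested on Adult 33. For miR-17, miR-106a and miR-106b, every Adult sample but Adult 33 lay below the Puber mean, which did not hold for the rest of the list. miR-106b had 619 CPM in Adult 33 and 208, 135 and 209 CPM in Adult 13, 20 and 4, against a Puber mean of 211 CPM. miR-20b averaged 3058 ± 348 CPM in Adult and 2881 ± 620 CPM in Puber, and miR-17 2666 ± 753 CPM in Adult and 2584 ± 596 CPM in Puber. miR-106a, at 2496 ± 686 CPM in Adult and 2449 ± 589 CPM in Puber, nearly matched miR-17 in each sample and may share its reads. The miR-15 and miR-16 family had 4 positive changes of 5 (median 0.46), with miR-195 at 2262 ± 1098 CPM in Adult and 2203 ± 337 CPM in Puber. Adult 33, at 3853 CPM, was the sole Adult sample of miR-195 above its Puber mean. Of the 5, 3 had a higher mean in Adult by upper quartiles and with factors from all entries, and 5 with no scaling or by median ratios.

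The miR-30 family had 3 positive changes of 4 (median 0.24, and -0.09 with factors from all entries), with miR-30d at 19089 ± 4656 CPM in Adult and 14477 ± 1490 CPM in Puber and miR-30c at 6106 ± 1055 CPM in Adult and 5803 ± 1578 CPM in Puber. Of the HOX-cluster miRNAs, 3 of 4 were positive (median 0.18), among them the abundant miR-10b at a log2 change of 0.00 ± 0.35. Members with a higher mean in Adult numbered 4 with no scaling, and 2 by upper quartiles and with factors from all entries. miR-10b averaged 74342 ± 35738 CPM in Adult and 74250 ± 19505 CPM in Puber. These near-equal means rested on Adult 20 at 127320 CPM. Adult 13, 33 and 4 had 54434, 51417 and 64196 CPM, against 84539, 86455 and 51755 CPM in Puber. miR-10a averaged 1060 ± 861 CPM in Adult and 1245 ± 706 CPM in Puber. In these families edgeR called no member over 13 or 7 samples, and miR-16 was the sole member whose groups did not overlap.

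Of small families, miR-181a averaged 1579 ± 446 CPM in Adult and 2186 ± 82.5 CPM in Puber, and miR-181b 381 ± 61.9 CPM in Adult and 648 ± 47.4 CPM in Puber. miR-181b lay lower without overlap (log2 change -0.77 ± 0.25, adjusted p = 0.101), except with no scaling. miR-146a averaged 1752 ± 921 CPM in Adult and 1692 ± 424 CPM in Puber, miR-146b-5p 1464 ± 358 CPM in Adult and 1056 ± 915 CPM in Puber, and miR-191a 9289 ± 1413 CPM in Adult and 6445 ± 1316 CPM in Puber, all with overlapping groups. The imprinted miR-675 and miR-335 averaged 12.5 ± 2.44 and 76.4 ± 28.8 CPM in Adult and 9.9 ± 3.27 and 81 ± 7.02 CPM in Puber, also with overlap. miR-371-5p, from a cluster known in pluripotent cells, averaged 3.99 ± 2.49 CPM in Adult and 7.76 ± 0.949 CPM in Puber and did not overlap in the main scaling (log2 change -0.98 ± 0.64, adjusted p = 0.415), but did in 2 of 4 others.

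**Figure D4:**
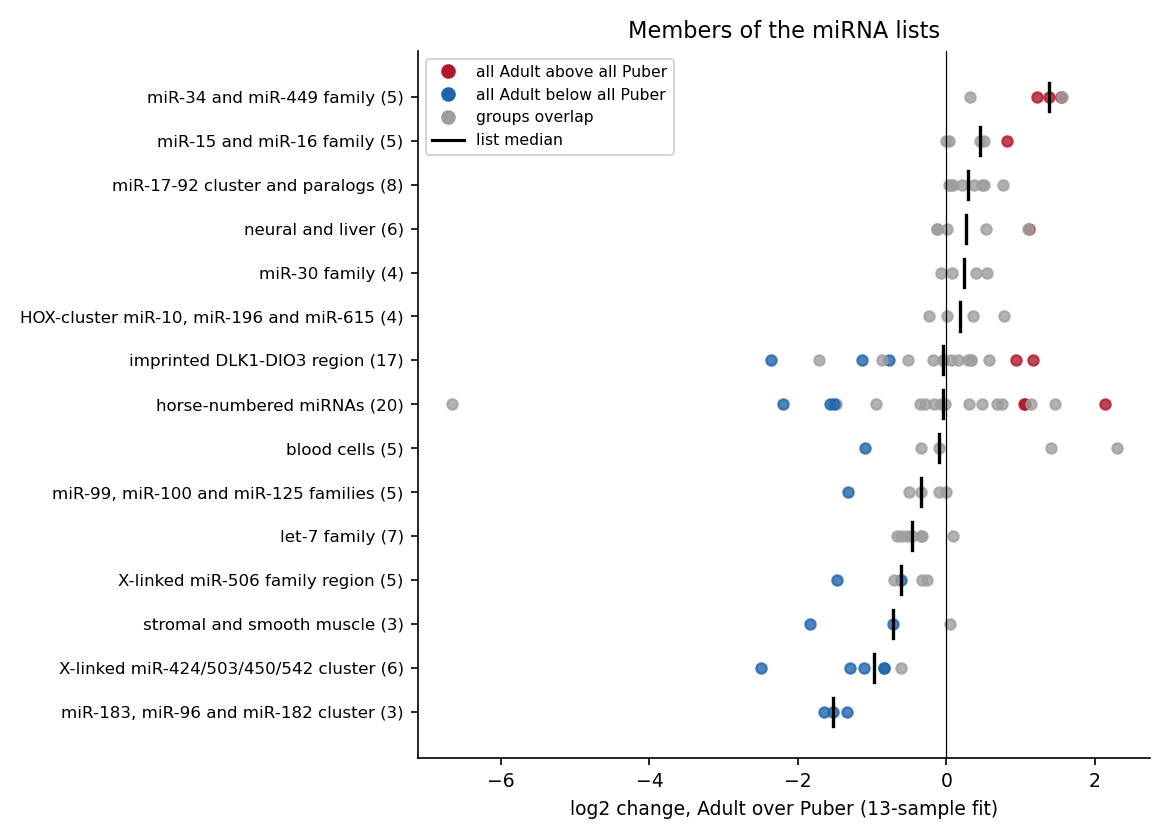
Each point is the log2 change, Adult over Puber in the 13-sample fit, of a member of the 15 lists with at least 3 tested miRNAs, and the black bar is the list's median. All 6 members of the X-linked cluster of miR-450 and miR-542 and all 3 of the miR-182 cluster lie left of 0, and all 5 of the miR-449 and miR-34 family lie right of it.

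Markers of other cell types were set beside these results, and their part in the results was not tested. miR-126-5p of endothelium had 610, 321, 317 and 535 CPM in Adult, against 266, 296 and 253 CPM in Puber, higher without overlap in the main scaling and in 2 of 4 others (log2 change 0.72 ± 0.47). The summed level of the 5 tested blood cell miRNAs ranged from 1957 to 5558 CPM in Adult and from 1777 to 2706 CPM in Puber, with none of the 5 at 0. Adult 33 set the upper end, with miR-451 of red cells at 83.4, 94.5, 1026 and 107 CPM in Adult, against 32.7, 91.9 and 76.7 CPM in Puber.

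miR-486-5p, also of red cells, had 664, 718, 3191 and 821 CPM in Adult, against 265, 749 and 510 CPM in Puber. miR-155 and miR-142-5p of leukocytes averaged 900 ± 114 and 253 ± 146 CPM in Adult and 1143 ± 478 and 272 ± 58.2 CPM in Puber. miR-499-5p of striated muscle averaged 146 ± 21.9 CPM in Adult and 99.1 ± 31.9 CPM in Puber. Of 6 tested neural and liver miRNAs, 4 had positive changes. miR-9a averaged 418 ± 141 CPM in Adult and 290 ± 81.9 CPM in Puber. The liver miRNA miR-122 averaged 39.4 ± 13.8 CPM in Adult and 18.3 ± 3.96 CPM in Puber, higher without overlap except under upper quartile scaling, at a log2 change of 1.11 ± 0.53 (adjusted p = 0.297). miR-129a-5p and miR-129b-5p, whose counts nearly match, averaged 138 ± 77.8 and 139 ± 78.4 CPM in Adult and 151 ± 55.6 and 151 ± 56 CPM in Puber.

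Predicted hairpins as a set leaned towards Adult. Of 733 tested hairpins, 589 (80.4%) had a positive change, with a median log2 change of 0.48 relative to the scaling of annotated miRNAs. Hairpins held 15.3 ± 2.69% of all counts in Adult and 12.9 ± 1.81% in Puber (SD, n = 4 and 3). These shares overlapped, with Adult 20 at 12.9%, below Puber 11 at 13.8% and Puber 19 at 14.1%. Adult 33 was highest, at 19.1%. edgeR called 0 of 733 (0%), with 17 at an unadjusted p under 0.05, while limma-voom called 2 and DESeq2 0. All Adult samples lay above all Puber samples for 95 hairpins (13%) and below them for 11 (1.5%), and the 95 held 91 distinct sequences and 81 distinct sets of counts. The lean depends on the scaling: the mean was higher in Adult for 89.1% of hairpins with no scaling and for 58.9% with factors from all entries.

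11_303879, whose printed sequence opens with a repeat of gag, had 224, 103, 122 and 367 CPM in Adult, against 59.7, 31.1 and 40.5 CPM in Puber (log2 change 2.22 ± 1.05). It stands in a pair of entries of the same sequence, of which the one with more counts was kept. 13_688010 had 104, 74.8, 46.4 and 70.6 CPM in Adult, against 8.86, 11.2 and 29.6 CPM in Puber, and 7_4521473, which shares 20 bases with it, had 89.6, 66.2, 43.8 and 56.4 CPM in Adult, against 7.12, 10.8 and 26 CPM in Puber. Both lay at or under 0.239 CPM in each Infant sample. In all 3, the lowest Adult sample was above the highest Puber sample.

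10_163723 averaged 80.6 ± 33.7 CPM in Adult and 25.7 ± 8.2 CPM in Puber, with 0 in all Infant samples, and 22_2440211 averaged 94.8 ± 43.2 CPM in Adult and 30.3 ± 2.25 CPM in Puber. On the X chromosome, X_5285926 had 494, 381, 683 and 377 CPM in Adult, against 76.8, 180 and 226 CPM in Puber (log2 change 1.59 ± 0.78). Its neighbour X_5285890, the other hairpin with the shared end printed above, had 737, 615, 710 and 501 CPM in Adult, against 247, 312 and 416 CPM in Puber (log2 change 0.98 ± 0.75). These 7 hairpins lay higher in Adult under all 5 scalings, and the adjusted p was 0.963 for each in the 13-sample fit. X_5285926 was named for its positive change and X_5285890 was added after its values were seen, so the choice set their direction. Of all tested hairpins, 80.4% had a positive change, and the direction of X-linked hairpins as a set was not tested.

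The most abundant hairpins were looked at after their values were seen. 1_1707588 averaged 64265 ± 30243 CPM in Adult and 59578 ± 13754 CPM in Puber, and 6_4351986 averaged 33330 ± 9571 CPM in Adult and 50472 ± 6071 CPM in Puber, a log2 change of -0.60 ± 0.21 with groups that overlapped through Adult 20. Hairpins carry no miRNA name and entered none of the lists, so whether they belong to a family described above was not tested. The sequences of 1_1707588 and 6_4351986, of 56 and 77 bases, follow because these entries held the most counts among hairpins.
1_1707588 (chr1:594419-594474, plus strand): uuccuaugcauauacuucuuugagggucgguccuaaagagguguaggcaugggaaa
6_4351986 (chr6:80187889-80187965, plus strand): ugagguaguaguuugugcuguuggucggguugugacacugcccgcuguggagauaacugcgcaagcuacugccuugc

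**Figure D5:**
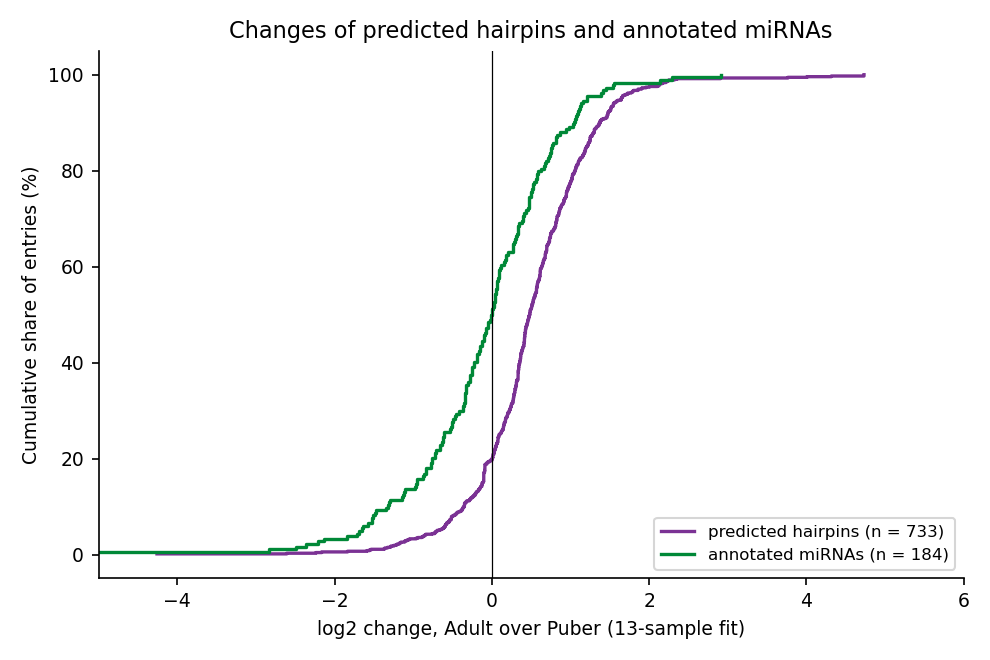
Cumulative share (vertical axis, %) of 733 predicted hairpins and 184 annotated miRNAs by their log2 change, Adult over Puber, on the scaling of the annotated miRNAs. The annotated curve crosses 50% close to 0, and the hairpin curve lies to its right, with a median of 0.48. 1 annotated miRNA lies beyond the left end of the axis.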

How the data were processed

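The authors deposited 1 table of counts for annotated mature miRNAs and predicted hairpins, with whole-number counts and RPM per sample. Each deposited RPM value equalled the count over the column total to within 0.0050 RPM, and RPM was used for this check alone. The submitters' processing notes name Trimmomatic and EquCab3.0, and the aligner and counting program are not given in the sources used here. Counting may use the same reads for entries of like sequence. Where an annotated name had several entries, the one with the most counts was kept.

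The number in a column's name gave its sample title, and of the columns numbered 4 the one with the prefix used for the sperm numbers was taken as sperm. Counts were tested with edgeR 4.0.16 in R 4.3.3 (quasi-likelihood F test, filterByExpr by stage, TMM scaling, Benjamini-Hochberg adjusted p under 0.05) on 13 testis samples. Hairpins used the annotated library sizes and factors. Standard errors come from the F statistic and are approximate. DESeq2 1.42.0 and limma-voom (limma 3.58.1), other scalings, filters and sample sets were alternatives. The fits were checked on simulated counts. Groups overlapped where any Adult and Puber CPM crossed.

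Named are up to 12 of the largest changes each way among miRNAs with at least 50 CPM and no overlap, the 10 most abundant of each group, all called, the most abundant 2 to 4 members of each list and up to 6 hairpins each way with at least 50 CPM and no overlap. A hairpin that the rule gave is not reported here. Of 30 lists, 24 had a member in the table. No annotated entry was used for the others: the miR-29, miR-200, miR-130 and miR-301, miR-221 and miR-222, miR-23, miR-24 and miR-27 lists and miR-202 of gonadal soma. Members and lists were chosen with earlier results of these data known. RefSeq genes of TB-T2T matched 175 of 184 tested miRNAs and gave neighbours only. Unused columns of per-sample values numbered 0.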

Additional observations from a re-analysis of the deposited data

Results flagged for a closer look

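Of 94 named miRNAs and hairpins tested within Adult, 9 had a sample far from the other 3, with a gap to the nearest, as a share of the group's range, over Dixon's critical value. Chance flags about 1 in 20 groups, and Puber, with 3 samples, was not tested. In Adult 33, the red cell miRNAs stood far above the other Adult samples: miR-451 at 1030 CPM (others 83.4 to 107) and miR-486-5p at 3190 CPM (others 664 to 821). Adult 33 also had miR-17 at 3790 CPM (others 2220 to 2391), miR-106a, of nearly the same counts, at 3520 CPM (others 2089 to 2248), and miR-1248 at 36.4 CPM (others 3.76 to 6.24). In Adult 20, the sample with the lowest depth, miR-10b stood at 127000 CPM (others 51417 to 64196), miR-146a at 3120 CPM (others 1190 to 1493), miR-9a at 628 CPM (others 325 to 368) and miR-1298 at 172 CPM (others 15.9 to 28). What set these samples apart was not tested.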

How the results depend on the processing

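The count of called annotated miRNAs, 0 in the 13-sample fit, was 1 with no scaling beyond the annotated total, 10 by DESeq2, 19 in the fit of 7 samples, 14 without Pre-puber 14 and 0 to 7 when an Adult or Puber sample was left out (7 without Adult 20 and 7 without Puber 19). It stayed 0 under the other alternatives. Called hairpins, also 0, were 2 by limma-voom, 2 without Pre-puber 14 and 2 without a filter on low counts. Chosen after seeing the data, alternatives of the 7-sample fit moved its 19 calls to 5 with no scaling and to 0 to 30 when a sample was left out, while upper quartile scaling gave 15, median ratios 18, DESeq2 25 (10 higher and 15 lower) and limma-voom 20. None of the 40 log2 changes that the naming rule took for no overlap or for a call changed sign. They were chosen from the same samples for that separation or call, so a change of sign was unlikely from the start. The median of all annotated changes was 0.31 with no scaling and -0.33 with hairpins in the same fit, beside -0.0027. The cause of these moves was not tested. No paired analysis was possible because the Adult and Puber titles share no replicate number. Low depth limits precision: miR-337-5p and miR-96 lay under 10 CPM in every Adult and Puber sample.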

Other observations

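Neighbouring miRNAs were grouped by the RefSeq annotation of assembly TB-T2T, at up to 50 kb between neighbours, which gave 10 clusters of at least 3 tested miRNAs with 46 members. A cluster not described above and named after its values were seen held miR-532-5p, miR-660, miR-362-5p, miR-501-5p, miR-500, miR-502-5p and miR-188-5p. Of its 7 members, 6 had a positive change (median 0.59, range -0.16 to 0.86) and none was without overlap. Its most abundant member, miR-532-5p, had 3208, 7251, 2191 and 3415 CPM in Adult, against 5323, 4990 and 3107 CPM in Puber, and was the sole negative one. miR-362-5p had 118, 91.1, 155 and 116 CPM in Adult, against 49.9, 60.2 and 95 CPM in Puber, so that Adult 20 and Puber 19 crossed. miR-660 averaged 368 ± 78.8 CPM in Adult and 247 ± 56.9 CPM in Puber (SD, n = 4 and 3), with a log2 change of 0.58 ± 0.32 (adjusted p = 0.336).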
